A study of Arabidopsis thaliana with 6 samples.

Results

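The SAUR genes of Arabidopsis thaliana were compared between wild-type seedlings (WT) and seedlings of the mir163 mutant. Members were the genes of the authors' deposited table whose description contains "SAUR" or "small auxin up", in any case, which gave 49 of 19955 genes. Of these, 47 carry a SAUR name in RefSeq. The other members, PAR1 and PAR2, are helix-loop-helix repressors of transcription that entered because their descriptions name SAUR genes as targets. A further 18 genes of the table are named SAUR in RefSeq but were not caught by this rule, 14 of them because their description is empty. They are given separately below.

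Whole seedlings were sampled at 7 days, untreated, from Col-0 plants kept in long days. There were 3 WT and 3 mir163 libraries, which the labels call biological replicates. The labels name no allele for mir163 and no time of day for the harvest. The table gives 1 FPKM value per genotype (fragments mapped per kilobase of transcript, relative to the library total). Neither the spread between replicates nor an overlap of the groups can therefore be given, and the depth is unknown. MIR163 (AT1G66725), the precursor gene that the mutant is named for, had an FPKM of 20.5 in WT against 0.0726 in the mutant, with a p of 0.180 in the authors' deposited table. Leaf and root transcripts were both present: RBCS1A, the small subunit of Rubisco, was at 18310 and 15342, and CASP1, of the root endodermis, at 56.6 and 50.2 in WT and mir163.

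SAUR genes encode small plant proteins whose mRNAs are short-lived and, for many members, accumulate within minutes of auxin treatment. Proteins of the SAUR19 group bind and inhibit PP2C.D phosphatases, which keeps the plasma membrane proton pump phosphorylated and active. The acidified wall then loosens and the cell expands. In seedlings, SAUR genes are known for their part in hypocotyl elongation, in opening of cotyledons in light and in the apical hook, with different members acting in different organs. In RNA of whole seedlings, fewer cells of a type and less RNA per cell cannot be told apart.

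The 47 SAUR genes were short and nearly all without introns. In the RefSeq annotation of TAIR10.1, 43 of 47 had 1 exon and 46 had 1 coding exon, while 14.2% of the 19284 protein-coding genes of the table have 1 exon. Median transcript length was 893 bases, against 1670 bases over 19672 genes of the table, and the coding sequence had a median of 372 bases. Many lie in tandem. With neighbours at most 50 kb apart, 12 members formed 2 clusters of at least 3, SAUR19 to SAUR24 on chromosome 5 and SAUR49, SAUR50, SAUR1, SAUR3, SAUR4 and SAUR5 on chromosome 4.

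The chromosome 5 cluster, at positions 5962773 to 5984308, held the most alike copies, with a coding identity between 87.7% and 95.2% over its 15 pairs. The beginnings of the 6 coding sequences are shown because they make clear how little separates genes whose levels differ. Each is the first 54 bases from the start codon, and capitals mark bases that differ from SAUR19 at the same position.
SAUR19 (chr5:5963252-5963305, minus strand): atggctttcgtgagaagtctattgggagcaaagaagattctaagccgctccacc
SAUR20 (chr5:5966527-5966580, minus strand): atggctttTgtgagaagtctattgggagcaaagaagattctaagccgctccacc
SAUR21 (chr5:5968527-5968580, plus strand): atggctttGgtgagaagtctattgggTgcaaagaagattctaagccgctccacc
SAUR22 (chr5:5974910-5974963, minus strand): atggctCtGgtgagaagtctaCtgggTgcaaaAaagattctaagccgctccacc
SAUR23 (chr5:5976030-5976083, plus strand): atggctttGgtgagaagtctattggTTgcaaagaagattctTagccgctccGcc
SAUR24 (chr5:5983840-5983893, plus strand): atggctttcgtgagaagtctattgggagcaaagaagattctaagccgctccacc
SAUR19 and SAUR24 were identical over this stretch, and SAUR22 and SAUR23 each differed from them at 5 bases.

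Sequence before the genes was shared as well. In the 250 bases before the annotated gene start, 12 of 47 SAUR genes (25.5%) held the E-box CATATG, one of a class of sites bound by helix-loop-helix factors, and 7.24% of 19671 promoters of the table did. On chromosome 5, SAUR20, SAUR21, SAUR22 and SAUR24 held it just after a common run, cccttgtg, which was noticed after the sequences were seen. SAUR19 has the run followed by cacatg rather than CATATG, and SAUR23 has neither the run nor CATATG in this window. The stretches below are upstream of the gene start, with CATATG in capitals.
SAUR19 (chr5:5963573-5963618, minus strand): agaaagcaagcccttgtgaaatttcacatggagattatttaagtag
SAUR20 (chr5:5966878-5966923, minus strand): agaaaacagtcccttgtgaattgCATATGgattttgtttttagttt
SAUR21 (chr5:5968192-5968237, plus strand): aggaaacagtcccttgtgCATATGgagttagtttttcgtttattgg
SAUR22 (chr5:5975244-5975289, minus strand): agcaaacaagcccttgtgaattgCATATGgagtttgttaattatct
SAUR24 (chr5:5983498-5983543, plus strand): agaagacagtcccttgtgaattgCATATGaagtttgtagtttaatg
These copies share their origin, so the 4 matches are not independent of each other.

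Across the family, levels in the mutant were close to those in WT, and no member was called by the authors' p-values as deposited. After Benjamini-Hochberg adjustment of the authors' p-values over the 19264 genes with an FPKM of at least 1 in a genotype, 0 of 48 members tested passed 0.05, and 0.0% of all genes did. The lowest p of any gene tested in the authors' deposited table was 5e-05, which became 0.0876 after this adjustment. The count of 0 therefore does not set the members apart from other genes. At an unadjusted p under 0.05 there were also 0 members in either direction, against 0.997% of all genes, of which 0.67% were higher and 0.327% lower in mir163. A p over 0.5 stood beside 41 of 48 members (85.4%), against 81.3% of all genes. The lowest p of a SAUR gene in the authors' deposited table was 0.183, and that of any member was 0.0716, for PAR1. The median p was 0.768 for members and 0.768 over all genes. A p that misses the threshold does not show that levels were equal.

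FPKM was higher in mir163 for 20 members and lower for 28, where 51.3% of all genes tested were higher and 48.7% lower. Among the SAUR genes alone the split was 20 higher and 26 lower. The median difference of log2(FPKM + 1), mir163 minus WT, was -0.07 over the members and 0.01 over all genes. Most members, 38 of 48, differed by less than 1.25-fold, a share of 79.2% beside 80.6% of all genes. A value at least 1.5-fold higher in mir163 was seen in 3 members, against 3.55% of all genes, and one at least 1.5-fold lower in 2, against 3.33%. Together these were 10.4% of members, against 6.87% of all genes. Of SAUR genes with a mean FPKM of at least 10, 5.0% differed by 1.5-fold, beside 4.43% of all genes at that level. At a lower mean the shares were 11.5% and 10.3%. SAUR38 and SAUR54 reached the filter only through mir163 and SAUR44 only through WT, so the filter fixed their directions.

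**Figure D1:**
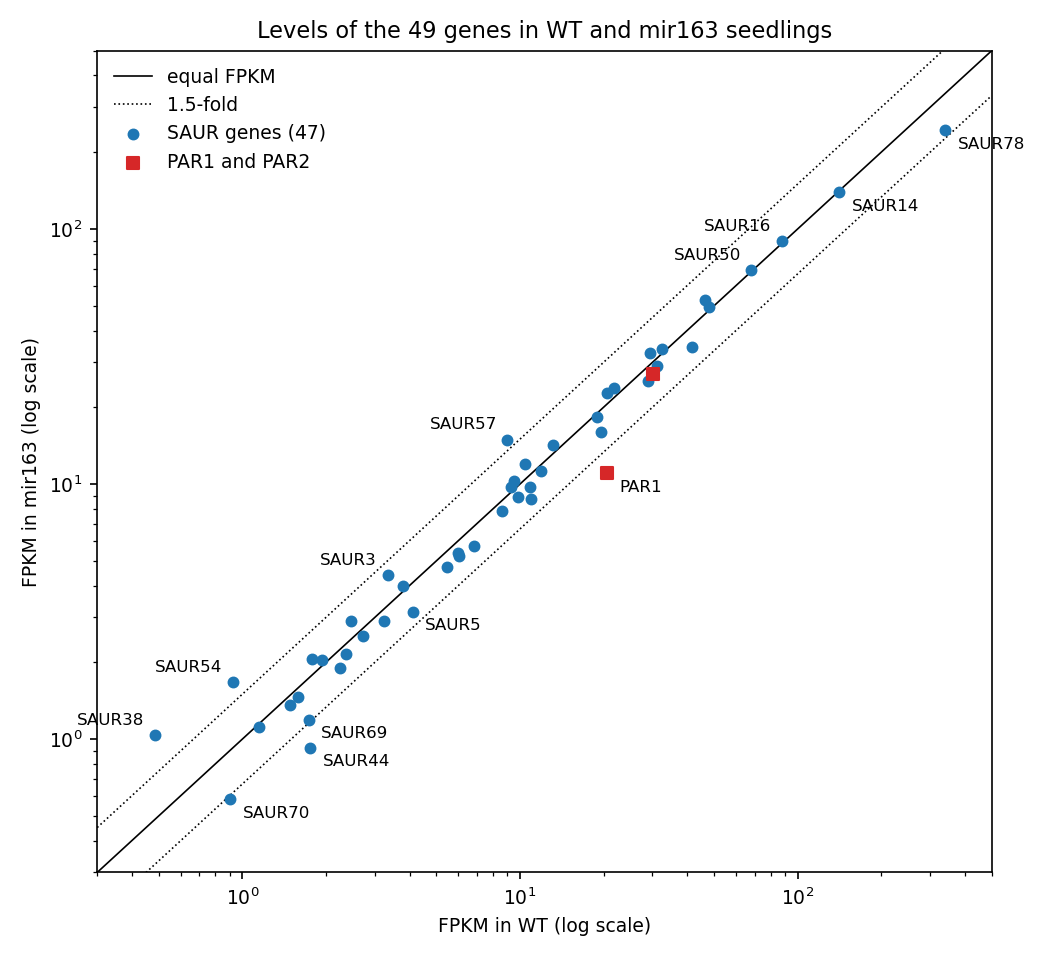
FPKM in WT (x axis) and mir163 (y axis), both on log scales, for the 47 SAUR genes (circles) and for PAR1 and PAR2 (squares), 1 value per genotype. Solid and dotted lines mark equal FPKM and a 1.5-fold difference. Points follow the solid line over the whole range, and SAUR57, SAUR54 and SAUR38 above, and PAR1, SAUR44 and SAUR70 below, lie outside the dotted lines.

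**Figure D2:**
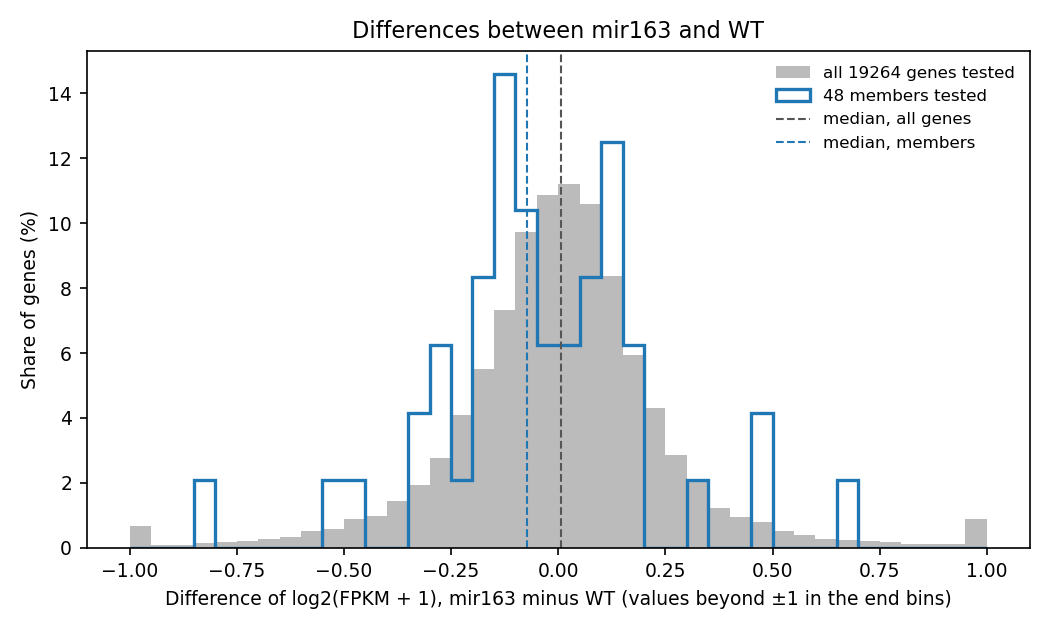
Share of genes (y axis, %) by the difference of log2(FPKM + 1), mir163 minus WT (x axis), for all 19264 genes tested (grey) and 48 members (outline), with medians as dashed lines. Both distributions centre near 0, with medians of 0.01 and -0.07.

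Levels of the 47 SAUR genes spanned a 704-fold range in WT, and a few genes carried most of their sum. SAUR6, a further SAUR gene outside these 47, was at 120 in WT and 141 in mir163. FPKM was under 1 in WT for 3 SAUR genes, from 1 to under 10 for 24, from 10 to under 50 for 16, and 50 or more for 4. These 4, SAUR78, SAUR14, SAUR16 and SAUR50, made up 55.8% of the summed FPKM of the 47 genes in WT and 51.8% in mir163.

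SAUR78 (AT1G72430) was the most abundant, with an FPKM of 341 in WT against 244 in mir163. Its protein, like those of SAUR76 and SAUR77, is known to interact with ethylene receptors. The level in WT was 1.39 times that in mir163, with a p of 0.255 in the authors' deposited table. SAUR77 (AT1G17345), the nearest relative of SAUR78 by coding sequence at 70.4% identity, was at 2.37 and 2.16. SAUR76 (AT5G20820) was at 3.78 and 3.99. Of these 3 genes, SAUR78 was the only one with an FPKM above 5 in a genotype.

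The summed FPKM of the 47 SAUR genes was 1142 in WT and 1047 in the mutant, which is a ratio of 0.916. Without SAUR78 the sums were 802 and 802, a ratio of 1.00. The sum over all genes of the table had a ratio of 0.912. That sum is mostly of abundant genes, with a ratio of 0.909 at a mean FPKM of at least 10 and 1.01 under 10. It does not mean that most genes were lower in mir163, as the median log2 difference over all genes tested was 0.01.

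SAUR14, SAUR16 and SAUR50, which are known as genes induced by light in cotyledons and repressed by it in the hypocotyl, differed little between genotypes. SAUR14 (AT4G38840) was at 142 in WT and 139 in mir163. SAUR16 (AT4G38860) was at 87.7 and 89.5, and SAUR50 (AT4G34760) at 68.1 and 69.0. Their p-values in the authors' deposited table were 0.958, 0.938 and 0.959. Opposite differences in cotyledons and hypocotyls would not be seen in RNA of whole seedlings.

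SAUR32 (AT2G46690), known from work on the apical hook, was the fifth of the members in mean level. It was at 46.5 in WT and 52.8 in mir163 (1.135-fold, p 0.621 in the authors' deposited table). Its relatives by coding sequence stood close to WT as well. SAUR31 (AT4G00880) was at 29.3 and 32.6, SAUR30 (AT5G53590) at 13.1 and 14.3, and SAUR33 (AT3G61900), the only member with several coding exons, at 1.93 and 2.05. All 4 had slightly higher values in mir163. SAUR36 (AT2G45210), which is induced in leaf senescence, was at 8.63 and 7.85, and its nearest relative SAUR59 (AT3G60690) at 21.7 and 23.8. SAUR55 (AT5G50760), also among the most abundant, was at 31.3 and 29.0.

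In the chromosome 5 cluster, whose proteins promote cell expansion, 5 of 6 genes had a lower value in mir163, with a median log2 difference of -0.17. SAUR20 (AT5G18020) and SAUR21 (AT5G18030) were the most abundant, with 47.8 and 41.6 in WT beside 49.4 and 34.6 in mir163. SAUR24 (AT5G18080) was at 28.9 and 25.3. SAUR19 (AT5G18010), SAUR22 (AT5G18050) and SAUR23 (AT5G18060) formed a lower tier, at 11.0, 10.9 and 9.80 in WT, beside 8.70, 9.71 and 8.87 in mir163. The highest and lowest differed 4.88-fold in WT, although the coding sequences are so alike.

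SAUR21 had the lowest p of the cluster, 0.518 in the authors' deposited table, so the shared direction rests on differences that were each far from the threshold. These genes also share sequence that short reads cannot always place. Of the 50-base windows of its transcript, 18.5% in SAUR19 occurred unchanged in another gene, 7.11% in SAUR24, 5.83% in SAUR20 and 5.19% in SAUR21. The sources used here do not say how the authors' processing divided such reads, so levels within the cluster are uncertain to that extent. The summed FPKM of the 6 genes, which depends less on that division, was 150 in WT and 137 in mir163 (1.10 times higher in WT).

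In the chromosome 4 cluster, at positions 16577180 to 16599568, 5 of 6 genes had a higher value in mir163, with a median log2 difference of 0.12. This cluster is more diverse, with coding identities from 41.1% to 62.4%, and none of its 50-base windows occurred in another gene. Levels spanned a 20.4-fold range in WT. Below SAUR50, SAUR1 (AT4G34770) was at 20.6 in WT and 22.8 in mir163, SAUR4 (AT4G34800) at 10.4 and 12.0, and SAUR49 (AT4G34750) at 9.52 and 10.3. SAUR3 (AT4G34790) was at 3.33 and 4.38 (1.31-fold), and SAUR5 (AT4G34810) went the other way, at 4.11 and 3.16. SAUR3 had the lowest p of these, 0.511 in the authors' deposited table. Whether the 2 clusters differ from each other was not tested, since no value per library was analysed here.

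With PAR1 and PAR2 left out, the 12 SAUR genes in these 2 clusters split evenly, 6 higher and 6 lower, and the 34 tested outside were 14 higher and 20 lower. The median log2 differences were -0.06 and -0.05.

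**Figure D3:**
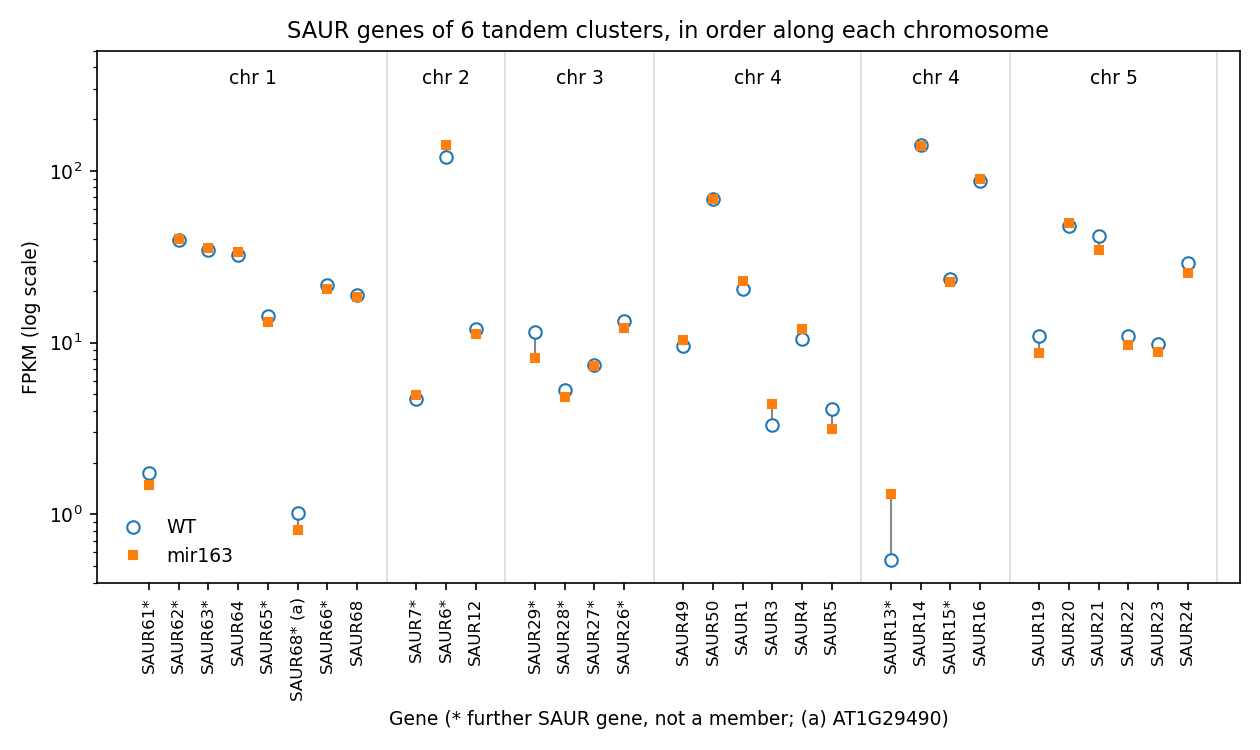
FPKM (y axis, log scale) in WT (open circles) and mir163 (squares) for SAUR genes of 6 tandem clusters in order along each chromosome, with an asterisk after the names of further SAUR genes that are no members. The symbols of a gene lie close together for most genes, while neighbours in a cluster differ widely, and the widest gap is at SAUR13 (0.544 in WT and 1.32 in mir163).

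The largest ratios belonged mostly to genes at low levels. Of those higher in mir163, SAUR54 (AT1G19830) was at 0.922 in WT against 1.67 in mir163, and its neighbour SAUR53 (AT1G19840) at 2.47 and 2.90. SAUR38 (AT2G24400), with a mean FPKM under 1, was at 0.484 and 1.03 and had the lowest p of the SAUR genes, 0.183 in the authors' deposited table. SAUR74 (AT3G12955) was at 1.78 and 2.05. SAUR57 (AT3G53250) was the only SAUR gene with a mean of at least 10 that differed by 1.5-fold. It stood at 9.001 in WT and at 14.9 in the mutant, 1.66-fold higher, with a p of 0.254 in the authors' deposited table.

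Of those lower in mir163, SAUR44 (AT5G03310) was at 1.75 in WT against 0.926 in mir163, and SAUR69 (AT5G10990) at 1.73 and 1.19. SAUR44 overlaps AT5G03300 on the opposite strand. SAUR60 (AT1G20470) was at 19.5 and 16.0, and it too overlaps annotated genes on the opposite strand. The labels leave the strandedness of the libraries unstated, so their reads cannot be told apart from those of their overlapping partners. In all, 5 of 47 SAUR genes overlap a gene on the opposite strand, among them SAUR64, SAUR31 and SAUR8. SAUR70 (AT5G20810), at 0.902 and 0.581, was under the filter and not tested.

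Values of the remaining members follow, all of them at ratios under 1.25-fold. SAUR64 (AT1G29450) was at 32.4 in WT against 33.9 in mir163, and SAUR68 (AT1G29510), from the same array on chromosome 1, at 18.9 and 18.4. The deposited description gives SAUR67 as the proper name of AT1G29510. SAUR9 (AT4G36110) and SAUR10 (AT2G18010), close relatives at 73.8% coding identity, stood at 5.45 and 2.73 in WT, and at 4.72 and 2.52 in mir163. Slightly lower values in mir163 were also seen in SAUR51 and SAUR52, neighbours on chromosome 1 (6.004 and 3.24 in WT against 5.36 and 2.91), and in SAUR56 (6.04 and 5.21) and SAUR72 (6.81 and 5.69). SAUR12 was at 11.9 and 11.2, and SAUR37 at 9.28 and 9.72. The last, SAUR8, SAUR35, SAUR45 and SAUR46, had WT values of 1.58, 1.49, 1.15 and 2.24 and mir163 values of 1.46, 1.35, 1.12 and 1.90.

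PAR1 (AT2G42870) had the largest difference on the log2(FPKM + 1) scale of any member, at 20.6 in WT and 11.0 in mir163. PAR1 is induced by simulated shade, restrains the shade avoidance response and represses SAUR15 and SAUR68. The WT level was 1.86 times the mutant's, with a p of 0.0716 in the authors' deposited table and an adjusted p of 0.9996 over all genes. This outcome depends on the scale of the p-values. All of them were also rescaled to the median of uniform ones, which lowers p-values and takes the bulk of genes to be equal between genotypes. The rescaling was first used after values of these data were seen, and adds no new measurement. With it, PAR1 had an adjusted p of 0.0028. It was then the 1 of 48 members called, beside 640 of the 19264 genes tested. PAR2 (AT3G58850), its close homologue, was at 30.2 and 27.1 (p 0.710 in the same authors' deposited table). The targets named in their descriptions are AT1G29510, given above as SAUR68, at 18.9 and 18.4, and SAUR15 (AT4G38850), an auxin reporter gene, at 23.3 in WT and 22.6 in mir163. Whether PAR1 protein differed was not measured.

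The other motifs searched, on both strands of the same 250 bases, each stood at a lower share before the 47 SAUR members than before all genes. The auxin response element TGTCTC was in 3 of 47 (6.38%) against 10.7% of all promoters, and its second form TGTCGG in 0 of 47 against 4.63%. The G-box CACGTG was in 1 of 47 (2.13%) against 7.41%, and the evening element of clock-regulated genes in 0 of 47 against 2.47%. The further SAUR genes are not in these shares, so the lower shares describe the 47 members and not SAUR genes in general. Shares over all 65 genes with a SAUR name were not computed. Among them TGTCTC lay before SAUR7, SAUR15, SAUR62 and SAUR66, TGTCGG before SAUR28 and SAUR63, and the evening element before SAUR79. The gene with a G-box was SAUR59, which has a pair of them, in capitals here.
SAUR59 (chr3:22434717-22434756, plus strand): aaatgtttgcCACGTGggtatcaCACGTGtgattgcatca
The motifs do not overlap each other here, and no match says only that these letters are not in this window. CATATG was also before SAUR8, SAUR9, SAUR12, SAUR33, SAUR37, SAUR38, SAUR49 and SAUR64. Of the 12 genes with it, 6 were higher and 6 lower in mir163, with a median log2 difference of -0.01, and the 34 tested genes without it had a median of -0.06.

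**Figure D4:**
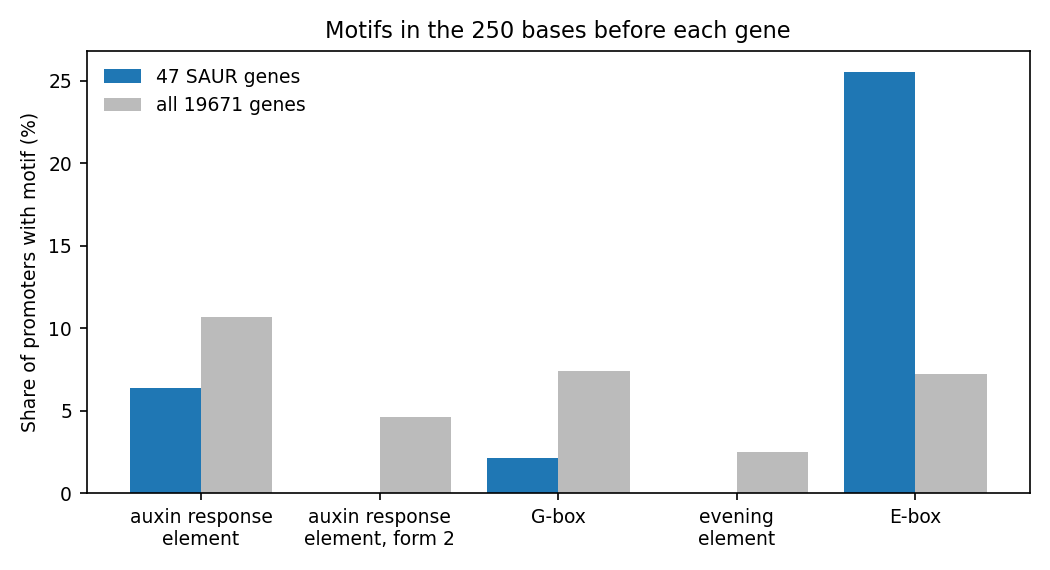
Share of promoters (y axis, %) with each motif in the 250 bases before the gene, for 47 SAUR genes (blue) and 19671 genes of the table (grey). Of the 5 motifs only the E-box, CATATG, stands higher for these 47 genes, at 25.5% against 7.24%. The further SAUR genes are not included.

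The 18 further genes named SAUR in RefSeq had an empty description (14), a removed one (1) or other wording (3). All 18 were tested, 5 were higher and 13 lower in mir163, beside 51.3% higher and 48.7% lower of all genes tested. Of the 18, 0 passed the adjusted threshold or had an unadjusted p under 0.05, against 0.0% and 0.997% of all genes. SAUR13 (0.544 in WT, 1.32 in mir163) reached the filter only through mir163. AT1G29490, also named SAUR68 (1.01 and 0.810), reached it only through WT, so the filter fixed both directions. The most abundant of the 18, SAUR6 (AT2G21210), was at 120 in WT and 141 in mir163, but its gene overlaps SAUR7 on the same strand. On chromosome 1, SAUR62 and SAUR63, of the group that promotes organ elongation, stood at 39.6 and 34.4 in WT beside 40.2 and 35.4 in mir163. In SAUR63, 27.1% of 50-base windows occurred in another gene, mainly in AT1G29510, and in SAUR62 23.2% did. With the further genes the chromosome 1 array had 8 genes, whose summed FPKM was 164 in both genotypes (a ratio of 1.00).

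SAUR26, SAUR27, SAUR28 and SAUR29, a cluster on chromosome 3 known for variation in growth with temperature, all had lower values in mir163. SAUR29 (AT3G03820) was at 11.6 and 8.11 and SAUR26 (AT3G03850) at 13.4 and 12.1, and the lowest p of the 4 in the authors' deposited table was 0.594. SAUR41 (AT1G16510), a protein of the plasma membrane that promotes cell expansion, was at 5.65 and 3.35, with the lowest p of the 18, 0.215 in the authors' deposited table. SAUR71 was at 5.06 and 3.76, and SAUR79 at 2.12 and 1.30. Over all 65 genes with a SAUR name, 25 of the 64 tested were higher and 39 lower, with a median log2 difference of -0.07. Of all genes tested, 51.3% were higher and 48.7% lower. One of the 65, AT5G01830, has the RefSeq symbol SAUR21 but is described as an ARM repeat protein with a coding sequence of 2025 bases, and its level was 4.91 in both genotypes.

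Transcripts of the partners of SAUR proteins were near WT, as were those of most genes. Of 9 PP2C.D phosphatases, the targets that SAUR19-type proteins inhibit, 3 were higher and 6 lower in mir163. All 9 differed by less than 1.25-fold, beside 80.6% of all genes tested. The most abundant, AT3G51370 and AT5G02760, stood at 69.3 and 65.4 in WT beside 65.1 and 62.0 in mir163. Of 11 proton pumps of the plasma membrane 8 were in the table and 7 were tested, 4 higher and 3 lower. The main pumps HA1 and HA2 gave 254 and 241 for WT, beside 289 and 244 for mir163. The median log2 differences were -0.03 for the phosphatases and 0.02 for the pumps.

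Upstream of SAUR genes, transcripts of auxin receptors and transcription factors were also mostly near WT. Of 6 receptors, 2 were higher and 4 lower, with TIR1 at 51.7 and 46.3 and AFB5 at 38.1 and 41.2. Of 15 ARF factors, which bind auxin response elements, 6 were higher and 9 lower, with ARF2 at 76.6 and 75.1 and ARF1 at 32.0 and 29.9. ARF6, at 14.6 and 19.6 (1.34-fold, p 0.350 in the authors' deposited table), was the only one of the 15 that differed by more than 1.25-fold, and is named after its values were seen. The median log2 differences were -0.11 for receptors and -0.03 for ARF factors.

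The last 3 lists hold genes that conjugate, make and move auxin. Of 8 GH3 enzymes, which join auxin to amino acids, 6 were tested, 2 higher and 4 lower, with a median log2 difference of -0.22. WES1 (GH3.5) was at 51.3 in WT and 28.3 in mir163, with a p of 0.0584 in the authors' deposited table, and DFL1 (GH3.6) at 53.7 and 39.8. Of 14 genes of auxin synthesis, 8 were tested, 3 higher and 5 lower, with a median of -0.09. YUC9 was at 1.47 and 0.569 (p 0.0608 in the authors' deposited table) and was tested only through WT, while the more abundant TAA1 and TAR2 had 12.9 and 10.7 in WT against 13.97 and 11.4 in mir163. Of 15 transporters 14 were tested, 5 higher and 9 lower, with a median of -0.02. The most abundant were the efflux carrier PIN3 at 137 and 93.6 and the influx carrier AUX1 at 104 and 82.9. In none of the 7 lists, with 65 genes tested, did a gene pass the adjusted threshold or have an unadjusted p under 0.05. Of all genes tested, 0.0% and 0.997% did. WES1 and YUC9 were singled out after their values were seen.

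**Figure D5:**
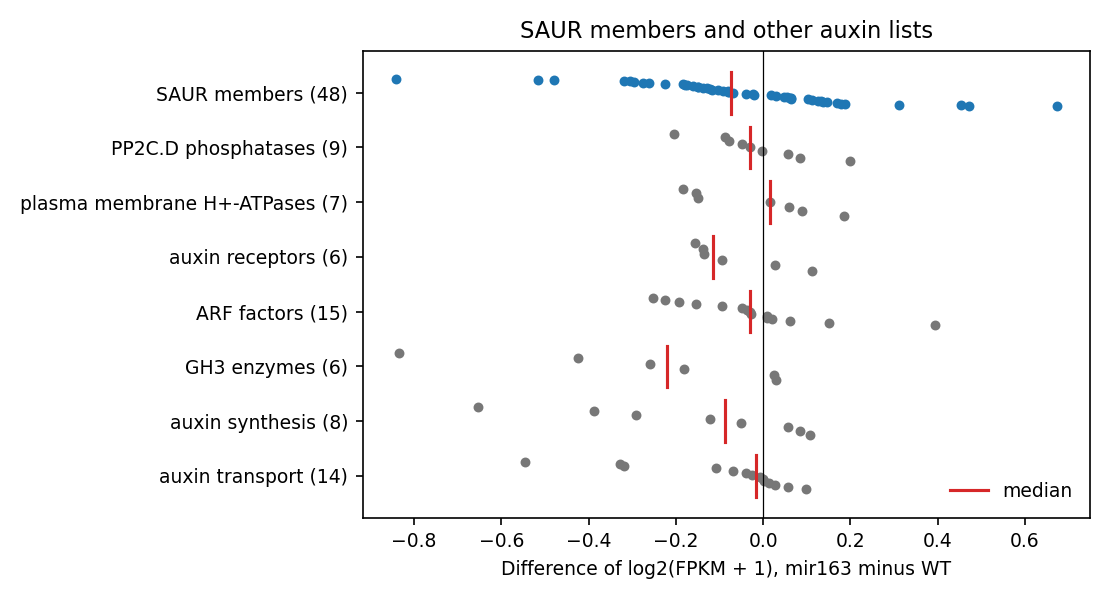
Difference of log2(FPKM + 1), mir163 minus WT (x axis), for each tested gene (points) of the SAUR members and of 7 auxin lists, with medians as red bars. Medians lie between -0.22, for the GH3 enzymes, and 0.02, for the proton pumps.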

How the data were processed

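Per the labels' protocols, Trizol served to isolate total RNA of whole seedlings, and the NEBNext Ultra kit to build libraries. Named without roles are TopHat, Cufflinks, bcl2fastq 2.17.1.14 and the build TAIR10, per the submitters' processing notes. Per the file headers, the authors deposited FPKM, 1 value for 3 WT libraries and 1 for 3 mir163 libraries, with a log2 fold change (the log2 ratio of these FPKM, within 1.3e-05) and an unadjusted p-value. The sources used here do not say how libraries were combined or which test the authors used, and no model over libraries could be fitted.

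Genes with an FPKM of at least 1 in a genotype (19264) were tested by adjusting the authors' deposited p-values with Benjamini-Hochberg at 0.05. Folds are FPKM ratios, and differences are of log2(FPKM + 1). Names and gene models come from RefSeq TAIR10.1, matched by locus tag for 49 of 49 members and 19672 of 19955 genes. Promoter and coding sequences were read from the RefSeq TAIR10.1 genome, and coordinates refer to it. Coding identity came from global alignment of each pair. Named genes were the 10 members highest in mean FPKM, the 8 largest ratios in each direction at a mean of at least 1, members of clusters, and in each other list the 2 highest. Further members were named to account for all. The members, lists and motifs were chosen with earlier results of these data known. The adjustment was tested on simulated data. Python 3.11.15, numpy 2.4.6, pandas 2.3.3, Biopython 1.88 and matplotlib 3.10.9 were used. Alternatives were other filters, pseudocounts, scalings and memberships, a rescaling of the p-values and a cluster distance of 20 kb.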

Additional observations from a re-analysis of the deposited data

How the results depend on the processing

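No paired analysis was possible because libraries were merged to 1 deposited FPKM for each genotype, so no library could be left out either. The count of 0 members called was the same without a filter and at a minimum FPKM of 5. All p-values were also rescaled to the median of uniform ones (chi-square values divided by 0.192, first used after values of these data were seen). Then 1 of 48 members was called, PAR1, at an adjusted p of 0.0028, beside 640 of the 19264 genes tested. In the auxin lists 2 of 65 tested genes were then called, WES1 and YUC9. The next member, a SAUR gene, had 0.0645. The rescaling takes the bulk of genes to be equal between genotypes, and the count of 0 changes with it. At a minimum FPKM of 5, which tests 31 members, 13 were higher and 18 lower. The median log2 difference was -0.0948 with a pseudocount of 0.1, and -0.0308 with one of 5. It was -0.05 without PAR1 and PAR2, an alternative chosen after seeing the data. Quantile normalization turned the sign of 0 of 48 members. Median-ratio scaling, a factor of 1.005, and the pseudocounts could not turn a sign here, so they say nothing about stability of direction. The 2 tandem clusters were the same at 20 kb. Depth is unknown, so precision at low FPKM cannot be stated.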
